A study of Mus musculus with 12 samples.

Results

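RAW264.7 cells kept in RANKL with vehicle medium were compared between day 5 and day 1. The comparison holds 4 of the 12 libraries of the study: vehicle day 1, replicates 1 and 2, and vehicle day 5, replicates 1 and 2, as the titles and descriptions in the labels name them. RAW264.7 is a mouse cell line, labelled as immortalized, as monocyte and macrophage, and with the strain Balb/c. Every culture received RANKL, at 100 ug/ml as the labels write it. The vehicle was MEM-alpha. The other arm received culture supernatant of Lactobacillus reuteri, and it enters here only through the shared estimate of spread and where its values are named. The labels give RPMI 1640 or MEM-alpha, each with fetal bovine serum, as growth medium without saying which culture had which. They do not say whether replicates were separate cultures, so the p-values rest on a spread between libraries that may be only technical. No culture without RANKL was sampled, so exposure to RANKL and time in culture cannot be told apart.

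RANKL binds its receptor RANK (Tnfrsf11a) on myeloid precursors and signals through TRAF6, NF-kB and AP-1. Together with calcium signals from ITAM adaptors this induces NFATc1, the transcription factor that switches on the osteoclast genes. Precursors then leave the cell cycle, fuse into multinucleated cells and form a sealed compartment on bone, where proton pumps and chloride channels lower the pH and cathepsin K and metalloproteinases digest the matrix. Factors such as IRF8 and BCL6 keep precursors in the macrophage state.

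The 2 libraries of day 5 were not alike, and each was set against day 1 separately. Day 5 replicate 1 resembled the day 1 libraries in composition: of its 13812078 reads, 87.51% fell to nuclear protein-coding genes and 4.019% to mitochondrial genes, against 85.84% and 85.55%, and 5.108% and 5.334%, in the 2 day 1 libraries (16781080 and 14158589 reads). In day 5 replicate 2, of 8995397 reads, 40.95% fell to nuclear protein-coding genes, 30.58% to mitochondrial genes and 9.842% to the nuclear RNA Malat1, which took 0.2186% to 0.2905% in the other 3. Replicate 2 is called the low-mRNA library below. The state followed the replicate number: replicate 2 of days 3 and 5 in both arms had 38.08% to 48.78% of reads on such genes. The deposited values are scaled to equal totals, which placed the median of all 14715 tested genes 1.23 log2 units lower in the low-mRNA library than on day 1 (median difference -1.226), against -0.003251 for replicate 1. Its differences are therefore given after scaling to nuclear protein-coding reads (median -0.1791), called the protein-coding scale, and its levels as deposited. 1 read is worth 0.7574 and 0.8977 normalized counts in the day 1 libraries, 0.9202 in day 5 replicate 1 and 1.413 in the low-mRNA library.

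Over 12 libraries with 1 mean per arm and day, limma called 0 of 14715 genes between vehicle day 5 and day 1 (0% of those tested), with 207 at an unadjusted p under 0.05. limma-voom on the recovered reads also called 0, with 214 at an unadjusted p under 0.05. Both counts are below the 736 genes that chance would give under that limit. Genes are said below to have risen or fallen where a fit with a separate mean for each day 5 library passed an adjusted p of 0.05. Its spread comes from the replicates of day 1 in both arms, with 2 residual degrees of freedom, and is assumed to hold at day 5. In replicate 1 that fit called 28.4% of genes (14.1% higher and 14.4% lower), and in the low-mRNA library 80.2% on the protein-coding scale (34.9% higher and 45.2% lower) and 84.6% as deposited (15.3% higher and 69.3% lower). The calls of replicate 1 rested on the vehicle day 1 pair: without either of its libraries 0 genes passed, with 5148 and 5019 at an unadjusted p under 0.05. A fit in which the low-mRNA effect is shared between arms, called the additive fit, passed 2.93% of genes for replicate 1 (1.62% higher and 1.31% lower). The fit with a separate mean for each day 5 library also compared those 2 libraries directly. It called 75.8% of genes on the protein-coding scale (32% higher in the low-mRNA library and 43.9% lower) and 82.1% as deposited (12.5% and 69.5%). That sets 1 library against 1 with the spread of day 1, so its calls and p-values are not used and differences between the 2 are given as descriptions. A list's share of calls near the share over all genes is not a result about the list. Both comparisons share the day 1 libraries, so their values are set side by side.

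The cells carried myeloid RNA in all 4 libraries. The 30 macrophage genes of the marker list summed to 207780 and 190420 normalized counts on day 1, 502300 in day 5 replicate 1 and 123900 in the low-mRNA library, and 29 of them reached 10 in some library. Lists for other cell types summed to less than the macrophage list in each of the 4 libraries. Those for stromal, lymphocyte, dendritic and endothelial cells were higher in day 5 replicate 1 than on day 1. Of 6 neutrophil and mast cell markers in the table, 2 were at 0 in all 4 libraries and 0 reached 10. The osteoblast and stromal list summed to 36.7 to 115, the dendritic cell list to 30.3 to 57.9, and the epithelial and endothelial list to 53.9 to 146, of which Vwf, the von Willebrand factor gene, reached 132.5. The T and B lymphocyte list summed to 118 and 99.6 on day 1, 854 in day 5 replicate 1 and 167 in the low-mRNA library. 1 of its 6 genes in the table, the immunoglobulin heavy chain gene Ighm, reached 10, at 841 in replicate 1. The part of such cells in the results was not tested, and in bulk RNA fewer cells of a type and less RNA per cell cannot be told apart.

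Genes that moved the same way in both day 5 libraries are described first. In 157 genes (1.07% of those tested) both day 5 libraries lay at least 1 log2 unit above both day 1 libraries on either scale, and in 167 (1.13%) at least 1 unit below. The deposited scale alone gave 1.11% above and 1.48% below, and the protein-coding scale alone 1.81% and 1.24%. Among the rises, the metalloproteinase inhibitor Timp2 went from 43.9 and 57.4 normalized counts on day 1 to 825 in day 5 replicate 1 and 1020 in the low-mRNA library. Its rise in replicate 1 was 4.01 ± 0.22 log2 units (SE; adjusted p = 0.0016, and 0.0006 in the additive fit). The selenium transport protein gene Selenop had 1.51 and 0.898 on day 1, and 82.8 and 74.9 on day 5. Maf, a transcription factor of macrophage maturation, had 0.757 and 1.8, then 47.8 and 170. In each of these genes the 2 groups did not overlap, by construction of the choice.

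Ms4a6c, a tetraspanning membrane protein of myeloid cells, stood at 330 and 342 on day 1 and at 1818 and 1782 on day 5. Cd84, a receptor of the SLAM family, stood at 51.5 and 40.4, then 274 and 365. The chemokine gene Ccl6 stood at 27.3 and 26, then 172 and 146, and did not pass the additive fit for replicate 1. As deposited, these 3 genes reached similar levels in both day 5 libraries. On the protein-coding scale each stood at least 0.85 log2 units higher in the low-mRNA library than in replicate 1, so the likeness depended on the scale. The secreted phospholipase Pla2g2d differed more between the day 5 libraries, with 3.79 and 1.8 on day 1, 25.8 in replicate 1 and 342 in the low-mRNA library. Wfdc17, a secreted protein of macrophages, had 55.3 and 33.2, then 317 and 211.

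The shared falls named next are among those with the largest differences. Ptgs2, the inducible cyclooxygenase, fell from 367 and 268 on day 1 to 15.6 in replicate 1 (-4.24 ± 0.23 log2 units, adjusted p = 0.0016, and 0.0039 in the additive fit), and the low-mRNA library held 1.41, which is 1 read. Igf2bp2, an mRNA-binding protein gene, fell from 810 and 662 to 128 and 65. The gap junction gene Gja1 fell from 186 and 220 to 32.2 and 5.65. In all 3 genes the day 5 levels lay below those of day 1, again by construction of the choice.

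Mgarp, a mitochondrial protein gene, had 54.5 and 53.9 on day 1, 4.6 in replicate 1 and 0 in the low-mRNA library, where 0 allows up to 4.239 normalized counts (3 reads). Adm, the hypoxia-responsive peptide adrenomedullin, had 105 and 91.6, then 4.6 and 2.83. The adjacent genes Dmpk and Dmwd both fell: Dmpk from 233 and 279 to 39.6 and 12.7, and Dmwd from 163 and 145 to 26.7 and 7.06. Reads from overlapping neighbours cannot be separated where strand is not stated. Serpinb1a, an inhibitor of neutrophil proteases, had 90.9 and 91.6, then 13.8 and 14.1. For replicate 1, Adm and Serpinb1a did not pass the additive fit, while Mgarp, Dmpk and Dmwd did.

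**Figure D1:**
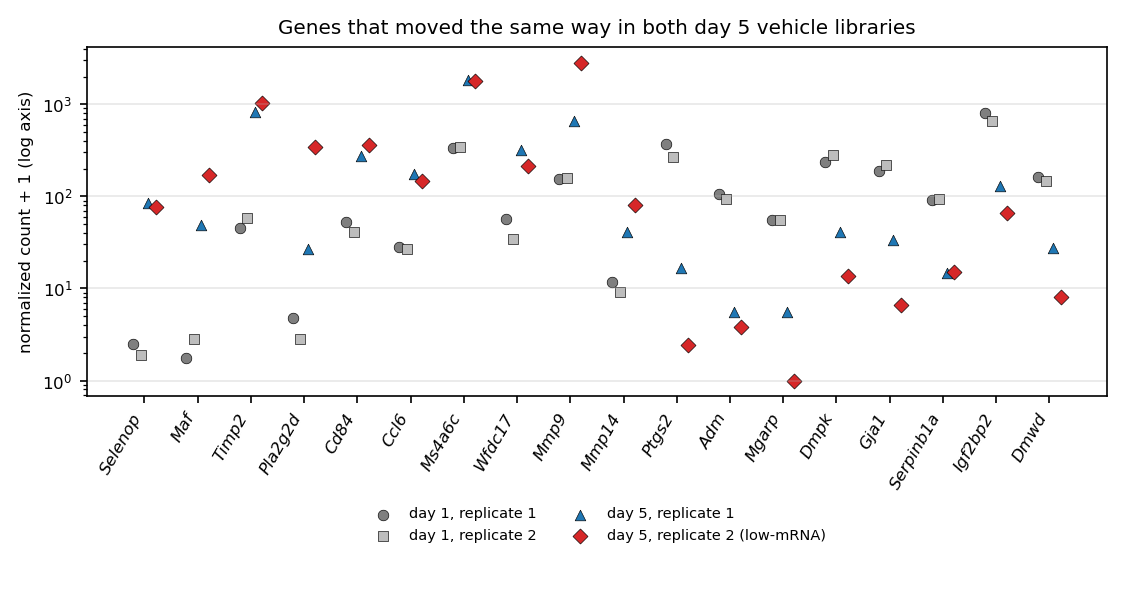
Normalized count + 1 (log axis) in the 4 vehicle libraries for the 10 genes with the largest shared rise and 8 of the 10 with the largest shared fall. Each point is 1 library, and in every gene both day 5 points lie on the same side of both day 1 points, by construction of the choice.

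More bone resorption genes were higher than lower in each day 5 library, with larger differences in the low-mRNA library. Of 20 listed genes 19 passed the filter on low values. In replicate 1, 10 rose and 2 fell, with a median difference of 0.52 (5 rose and 1 fell in the additive fit), and in the low-mRNA library 15 rose and 3 fell, with a median of 2.91 on the protein-coding scale (12 rose and 6 fell as deposited). The 5 genes Mmp9, Mmp14, Atp6v0d2, Src and Acp2 lay at least 1 log2 unit above day 1 in both libraries on either scale. The receptor gene Calcr, for calcitonin, did not pass the filter and reached at most 15.5 normalized counts.

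Mmp9, the gelatinase of osteoclasts, stood at 155 and 158 on day 1, 663 in day 5 replicate 1 and 2814 in the low-mRNA library. It rose by 2.07 ± 0.08 log2 units in replicate 1 (adjusted p = 0.0013, and 0.015 in the additive fit) and by 5.22 in the low-mRNA library. Atp6v0d2, the proton pump subunit needed for fusion, stood at 288 and 309, then 809 and 2569, a rise of 1.44 ± 0.07 in replicate 1 (adjusted p = 0.0016, and 0.016 in the additive fit) and 4.17 in the low-mRNA library. In both genes day 1 and day 5 did not overlap, by construction, since they are among the 5 genes beyond day 1 in both libraries. Mmp14, a membrane-bound collagenase, had 10.6 and 8.08, then 39.6 and 80.5. The kinase gene Src had 100 and 102, then 236 and 366. Acp2, a lysosomal acid phosphatase, had 635 and 668, then 1823 and 1742, with its highest deposited level in replicate 1.

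Of the tested resorption genes, Acp5 and Ctsk differed most between the day 5 libraries. Acp5, which encodes the tartrate-resistant acid phosphatase TRAP, had 12.1 and 20.6 on day 1, 35.9 in replicate 1 and 1231 in the low-mRNA library. Its difference in replicate 1, 1.13 ± 0.30 (adjusted p = 0.0475, and 0.085 in the additive fit), also lost the threshold with a pseudocount of 0.5, with quantile normalization and on the protein-coding scale. Ctsk, cathepsin K, had 170 and 170 on day 1, 299 in replicate 1 and 6680 in the low-mRNA library. On the protein-coding scale the low-mRNA library stood 6.16 log2 units above replicate 1 in Acp5 and 5.57 in Ctsk.

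Other genes of acid secretion and attachment followed the low-mRNA library. Tcirg1, the osteoclast subunit of the proton pump, had 2637 and 2389 on day 1, 2972 in replicate 1 (adjusted p = 0.10) and 9007 in the low-mRNA library. The proton exchanger Slc9b2 had 0.757 and 7.18, then 10.1 and 172. Itgb3, the beta-3 integrin chain, had 4.54 and 0, then 5.52 and 76.3. Neither passed in replicate 1. Ppargc1b, a coactivator of mitochondrial biogenesis in osteoclasts, fell in replicate 1 (152 and 134, then 102) and reached 877 in the low-mRNA library. Car2, carbonic anhydrase II, which supplies the protons, went the other way: 188 and 169 on day 1, 43.2 in replicate 1, a difference of -2.02 ± 0.12 (adjusted p = 0.0017, and 0.0096 in the additive fit), and 89 in the low-mRNA library, a protein-coding-scaled difference of 0.06 that did not pass. Itgav, the partner of Itgb3, had 2592 and 2914, then 2296 and 297, and fell in the low-mRNA library on either scale.

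Promoter sequence was looked up for the 4 resorption or fusion genes, of those with a mean of at least 50 on day 1 or day 5, whose smaller deposited difference was largest, Mmp9, Mmp14, Slc9b2 and Atp6v0d2, and 2 of them had an entry. The 250 bases upstream of each start site are shown from RefSeq (GRCm38.p6), because NFATc1 and AP-1 are the factors that RANKL signalling acts through. Mmp14 lies on the plus strand (chr14:54431348-54431597) and Slc9b2 on the plus strand (chr3:135307450-135307699). Capitals mark matches to the NFAT core GGAAA, or TTTCC on the other strand.
Mmp14: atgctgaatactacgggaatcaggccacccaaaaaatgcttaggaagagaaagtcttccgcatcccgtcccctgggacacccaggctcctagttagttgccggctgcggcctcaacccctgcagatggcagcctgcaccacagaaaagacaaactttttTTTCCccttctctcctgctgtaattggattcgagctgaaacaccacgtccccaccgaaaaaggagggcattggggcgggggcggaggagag
Slc9b2: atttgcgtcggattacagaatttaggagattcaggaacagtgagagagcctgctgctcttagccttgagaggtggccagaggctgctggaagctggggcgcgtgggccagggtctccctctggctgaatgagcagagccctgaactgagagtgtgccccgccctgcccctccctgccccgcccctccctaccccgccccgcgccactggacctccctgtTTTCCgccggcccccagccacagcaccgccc
Each window held 1 such match, as 55.6% of 27025 windows of this length upstream of mouse start sites hold at least 1. Neither held a match, on either strand, to the AP-1 site TGANTCA (6.87% of windows), the PU.1 site GAGGAAG (10.4%) or the MiT/TFE site TCACATG (3.48%). The windows were 55.2% and 65.6% G or C. A match is a description of these letters only.

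**Figure D2:**
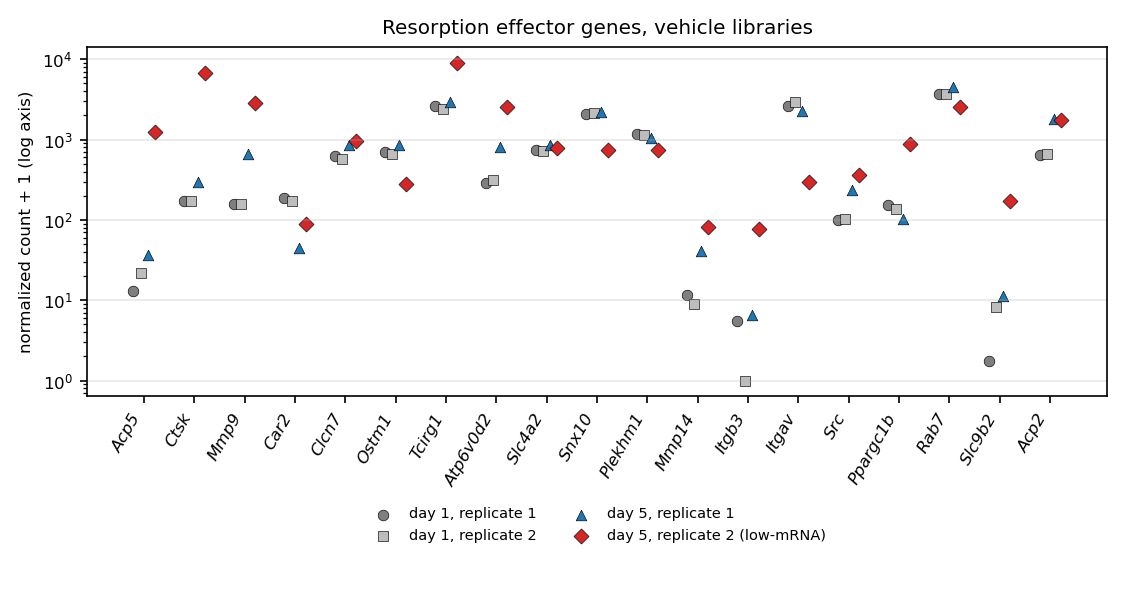
Normalized count + 1 (log axis) of the 19 tested resorption genes in the 4 vehicle libraries, 1 point per library. The low-mRNA library is the highest of the 4 in Acp5, Ctsk, Mmp9, Tcirg1 and Itgb3, while replicate 1 of day 5 is the lowest in Car2.

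Fusion genes divided between the 2 libraries. Of 17 tested genes (of 18 listed), 11 rose and 3 fell in replicate 1 (median 0.47; 2 rose and 1 fell in the additive fit), and 10 rose and 4 fell in the low-mRNA library on the protein-coding scale (median 0.96), where the deposited scale gave 5 and 8 (median -0.10). The 2 multipass proteins that drive fusion fell in replicate 1. Dcstamp had 1599 and 1409 on day 1 and 836 in replicate 1 (-0.84 ± 0.09, adjusted p = 0.0045, not passed in the additive fit at 0.087), against 1516 in the low-mRNA library. Ocstamp had 186 and 219, then 54.3 (-1.88 ± 0.14, adjusted p = 0.0023, and 0.045 in the additive fit) and 329, the lowest and the highest values being those of day 5. On the protein-coding scale the low-mRNA library stood 1.08 log2 units above day 1 in Dcstamp and 1.76 in Ocstamp. Ccr1, the receptor for the chemokine CCL9, had 32.6 and 30.5, then 47.8 and 396. Its ligand Ccl9 had 9248 and 9164, then 11843 and 9656. Trem2, a receptor that signals through the ITAM adaptor DAP12, rose in both, from 2283 and 2145 to 3963 and 4572. The tetraspanin Tspan13 rose in replicate 1, from 110 and 112 to 462, and fell in the low-mRNA library on either scale, to 41, with a difference between the day 5 libraries of -2.39 log2 units on the protein-coding scale.

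RANK signalling genes showed no common direction. Of 38 genes, 14 rose and 7 fell in replicate 1 (median 0.12; 1 rose and 1 fell in the additive fit), and 17 rose and 16 fell in the low-mRNA library (median -0.05; 9 and 27 as deposited). Tnfrsf11a, the receptor itself, had 2206 and 2448 on day 1, 1889 in replicate 1 (-0.30 ± 0.08, adjusted p = 0.046, lost with quantile normalization and, at 0.26, in the additive fit) and 531 in the low-mRNA library. Nfatc1 had 1423 and 1608 on day 1, then 800 and 831. Its difference was -0.92 ± 0.10 in replicate 1 (adjusted p = 0.0048, and 0.058 in the additive fit), while in the low-mRNA library the protein-coding scale placed it 0.20 above day 1 (adjusted p = 0.11) and the deposited scale gave -0.86. Both day 5 levels of Nfatc1 were under both day 1 levels as deposited.

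AP-1 members moved in both directions. Fosl2 fell in replicate 1 from 2130 and 2156 to 1040 (-1.04 ± 0.05, adjusted p = 0.0016, and 0.035 in the additive fit) and Fosl1 from 87.1 and 79.9 to 28.5. The partner genes Jun and Jund rose there, Jun from 588 and 555 to 1032 and Jund from 315 and 311 to 588, and in the low-mRNA library they stood at 738 and 537. Myc, a driver of growth and metabolism, fell in both libraries on either scale, from 1907 and 1983 to 929 and 148. Mycl fell from 29.5 and 29.6 to 7.36 in replicate 1 and was at 0 in the low-mRNA library. Of the ITAM branch, the adaptor genes Tyrobp (2088 and 1817, then 3606 and 4544) and Fcer1g (1952 and 1874, then 3337 and 4590) rose in both. The receptor gene Oscar, an osteoclast costimulator, had at most 0.92 in the first 3 libraries and 28.3 in the low-mRNA library. Prdm1, which encodes the repressor Blimp1, had 2.27 and 0 on day 1, 3.68 in replicate 1 and 62.2 in the low-mRNA library.

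Day 3 levels differed in their relation to day 5 between the replicates. In vehicle day 3 replicate 1, Nfatc1 stood at 6224, Acp5 at 1068, Ctsk at 2085 and Atp6v0d2 at 4612, all above day 5 replicate 1. In vehicle day 3 replicate 2, a low-mRNA library, Nfatc1 stood at 930, Acp5 at 675, Ctsk at 581 and Atp6v0d2 at 850, and of these Nfatc1 alone was above day 5 replicate 2. These values have no test.

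Negative regulators of osteoclast formation rose in replicate 1 or did not pass, and their calls in the low-mRNA library were near the shares over all genes. Of 15 tested genes (of 19 listed), 7 rose and 0 fell there, with a median of 0.31 (2 rose in the additive fit), against 5 and 7 in the low-mRNA library (median 0.06; 3 and 10 as deposited). Irf8, the interferon regulatory factor that blocks NFATc1, had 508 and 376, then 847 and 454, and passed in replicate 1 (0.95 ± 0.19, adjusted p = 0.022, and 0.047 in the additive fit). Id2, an inhibitor of helix-loop-helix factors, passed there as well, with 62.1 and 93.4, then 165 and 41. Bcl6 had 944 and 1029, then 1041 (adjusted p = 0.51) and 331. As deposited, Irf8 and Id2 were highest in replicate 1, and their low-mRNA levels were near or below those of day 1. On the protein-coding scale Irf8 stood 1.12 log2 units above day 1 in the low-mRNA library, against 0.95 in replicate 1.

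Proton pump and lysosome genes were mostly higher in replicate 1. Among 20 V-ATPase subunits 8 rose and 0 fell (median 0.25; 1 rose in the additive fit). In the low-mRNA library 15 rose and 2 fell (median 1.00), and as deposited 7 rose and 8 fell (median -0.02). Atp6v1d, of the stalk, had 635 and 643, then 877 and 1604. Among 39 tested lysosomal hydrolases and membrane proteins (of 40 listed) 29 rose and 0 fell in replicate 1 (median 0.53), of which 3 also passed the additive fit. In the low-mRNA library 25 rose and 8 fell on the protein-coding scale (median 0.45), which turned to 7 and 23 as deposited (median -0.61).

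Within the lysosome, cathepsin S (Ctss), a protease of antigen processing, had 8199 and 8025 on day 1, then 18519 and 8333. Cathepsin D (Ctsd) had 16691 and 15339, then 34500 and 22661. The arylsulfatase gene Arsb had 1098 and 1091, then 2780 and 746, and the hexosaminidase subunit Hexa 2788 and 2610, then 5505 and 4982. Lamp1 and Lamp2, the main membrane glycoproteins, rose in replicate 1 (Lamp2 from 5750 and 5837 to 8963) and fell in the low-mRNA library on either scale (Lamp2 to 1468). Ctsd and Hexa rose in that library on either scale, whereas Arsb rose on the protein-coding scale and fell as deposited.

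In podosome genes the calls of the low-mRNA library were near the shares over all genes. Of 28 tested podosome genes (of 30 listed) 10 rose and 2 fell in replicate 1 (median 0.17; 1 rose in the additive fit), and 9 rose and 15 fell in the low-mRNA library (median -0.33; 3 and 23 as deposited). The scaffold gene Sh3pxd2a, which encodes TKS5, had 323 and 308, then 585 and 42.4. Dock5, an exchange factor for Rac, fell in both, from 1926 and 2030 to 1260 and 355. Of 13 tested matrix proteins and secreted proteases (of 20 listed) 8 rose and 1 fell in replicate 1 (median 0.59; 3 and 1 in the additive fit), and 5 rose and 8 fell in the low-mRNA library (median -0.99; 4 and 8 as deposited). Mmp12, the macrophage elastase, had 489 and 392, then 2591 and 98.9. It rose by 2.56 ± 0.14 in replicate 1 (adjusted p = 0.0016, and 0.064 in the additive fit) and fell by 1.08 log2 units in the low-mRNA library. Spp1, osteopontin, had 94677 and 76840, then 100880 (adjusted p = 0.28) and 10356.

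Macrophage identity genes had the highest median in replicate 1 among the 31 lists described, except after quantile normalization, where MHC class II stood at 1.34 and macrophage identity at 1.31. Of 28 tested genes (of 30 listed) 26 rose and 0 fell, with a median of 1.32 against -0.003251 for all genes, and 10 passed the additive fit. Adgre1, which encodes F4/80, had 2377 and 2192 on day 1, 5307 in replicate 1 and 324 in the low-mRNA library. It rose by 1.22 ± 0.08 in replicate 1 (adjusted p = 0.0018, and 0.31 in the additive fit) and fell by 1.75 log2 units in the low-mRNA library. Siglec1, a sialic acid receptor of resident macrophages, had 87.1 and 77.2, then 628 and 45.2. The pore-forming protein gene Mpeg1 had 12052 and 10365, then 41337 and 6659, and the lysozyme gene Lyz2 104639 and 94718, then 284656 and 65879. Csf1r, the receptor for M-CSF, had 10176 and 9266, then 14087 and 4630. As deposited, the low-mRNA library was the lowest of the 4 in these 5 genes, but on the protein-coding scale Mpeg1 and Lyz2 rose there, by 0.32 and 0.47, and Siglec1 and Csf1r did not pass.

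A smaller set of macrophage genes rose in both libraries on either scale. Itgax, the CD11c integrin chain, had 192 and 224, then 739 and 1615, a rise of 1.83 ± 0.11 in replicate 1 (adjusted p = 0.0017, and 0.0032 in the additive fit) and 4.02 in the low-mRNA library. Clec7a, the beta-glucan receptor dectin-1, had 292 and 355, then 995 and 1283. Mertk, a receptor for the clearance of dying cells, had 3.79 and 7.18, then 31.3 and 15.5. With Maf, these were the 4 list members beyond day 1 in both libraries. For the list as a whole, the low-mRNA library gave 16 rises and 9 falls on the protein-coding scale (median 0.42), 5 and 19 as deposited (median -0.64) and 11 and 11 after quantile normalization (median -0.06), so its direction there depended on the scale. Toll-like receptor 4 (Tlr4) had 1160 and 1141, then 1435 and 79.1, and fell in that library on either scale.

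**Figure D3:**
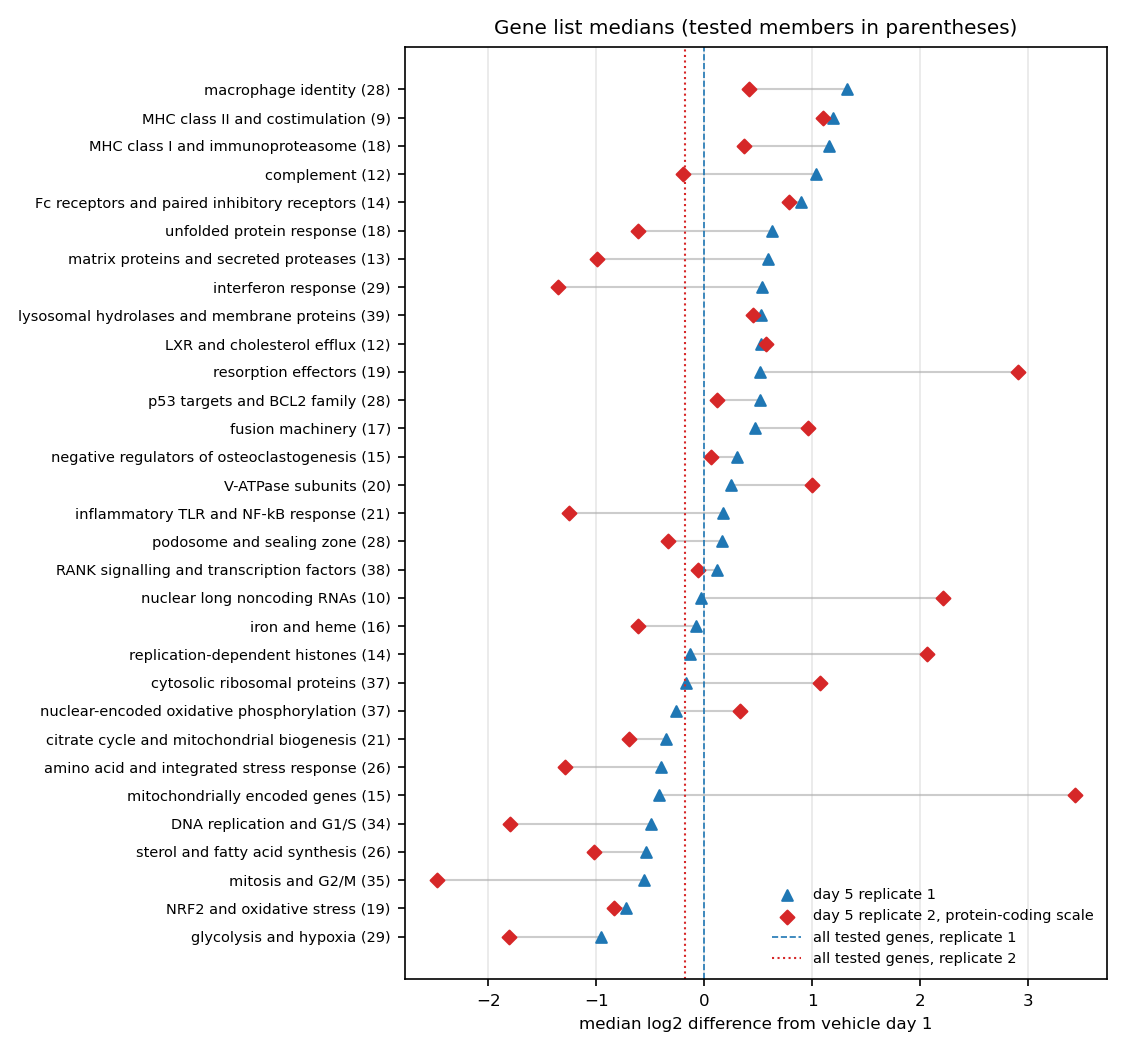
Median log2 difference from vehicle day 1 of the tested members of 31 gene lists, for day 5 replicate 1 (triangles) and the low-mRNA library on the protein-coding scale (diamonds), sorted by replicate 1, with dashed and dotted lines at the medians of all genes. Macrophage identity (1.32) and glycolysis (-0.96) mark the ends for replicate 1 on the scale plotted, and the mitochondrially encoded genes (3.44) and mitosis (-2.47) the ends for the low-mRNA library.

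Genes of antigen presentation, Fc receptors and complement were higher in replicate 1. Of 18 MHC class I and immunoproteasome genes 15 rose and 0 fell (median 1.16), and 9 passed the additive fit. H2-D1, a class I heavy chain, had 8643 and 8074 on day 1, 24039 in replicate 1 and 7196 in the low-mRNA library, and B2m, its light chain, had 7638 and 7959, then 17331 and 5666. The nonclassical H2-T23 had 422 and 331, then 1073 and 586. Class I genes are near-identical copies, so reads may be split between them. In the low-mRNA library 10 rose and 3 fell on the protein-coding scale (median 0.37), which turned to 3 and 14 as deposited.

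Of 9 tested genes for MHC class II and costimulation (of 14 listed) 4 rose and 0 fell in replicate 1 (median 1.19; 4 rose in the additive fit). H2-DMa, a peptide editor, had 41.7 and 26.9, then 173 and 56.5, and Cd83 had 82.6 and 66.4, then 259 and 133. The costimulatory Cd80 rose in both libraries on either scale, from 56.8 and 53.9 to 177 and 162. The class II chains H2-Aa and H2-Ab1 reached at most 8.48 and did not pass the filter. Of 14 tested Fc and paired receptors (of 16 listed) 13 rose and 0 fell in replicate 1 (median 0.90; 4 rose in the additive fit). The inhibitory receptor gene Fcgr2b had 270 and 278, then 1190 and 307, and the activating Fcgr3 had 530 and 454, then 1969 and 822. In the low-mRNA library 10 of the 14 rose and 3 fell (median 0.78; 4 and 8 as deposited, median -0.28).

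Of 12 tested complement genes (of 16 listed) 10 rose and 0 fell in replicate 1 (median 1.04; 3 rose in the additive fit), and 3 rose and 5 fell in the low-mRNA library (median -0.20; 3 and 9 as deposited). C3, the central component, had 340 and 340 on day 1, then 1980 and 72.1. Its rise of 2.54 ± 0.07 (adjusted p = 0.0013) did not pass the additive fit (adjusted p = 0.10). C1qb had 1.51 and 0, then 9.2 and 17, above day 1 in both libraries at a low level.

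Inflammatory and interferon genes were lower in the low-mRNA library and mixed or higher in replicate 1. Of 21 tested inflammatory genes (of 30 listed) 4 rose and 4 fell in replicate 1 (median 0.17; 1 rose and 2 fell in the additive fit), and 2 rose and 14 fell in the low-mRNA library (median -1.25; 1 and 17 as deposited). Nfkbiz, an IkB protein of secondary responses, had 86.3 and 88, then 277 and 112, and the decoy receptor gene Ccrl2 had 11.4 and 9.87, then 68.1 and 1.41. Acod1, the itaconate synthase, fell in both, from 219 and 186 to 115 and 29.7. Tnf had 444 and 400, then 471 (adjusted p = 0.25) and 151. Of 29 tested interferon genes (of 31 listed) 10 rose and 1, Oas3, fell in replicate 1 (median 0.54; 1 rose in the additive fit), and 4 rose and 23 fell in the low-mRNA library (median -1.35; 0 and 27 as deposited). The GTPase gene Ifi47 had 45.4 and 55.7, then 144 and 4.24.

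Glycolysis and hypoxia genes fell in both day 5 libraries. Of 29 tested genes (of 30 listed) 25 fell and 0 rose in replicate 1 (median -0.96), and 28 fell and 0 rose in the low-mRNA library (median -1.80; 29 and 0 as deposited; after quantile normalization 28 fell and 1 rose). 9 fell in the additive fit, and 12 lay at least 1 log2 unit below day 1 in both libraries on either scale. Bnip3, a hypoxia-induced mitophagy receptor, had 4989 and 5039 on day 1, 1035 in replicate 1 and 131 in the low-mRNA library. Its fall in replicate 1 was -2.27 ± 0.05 (adjusted p = 0.0013, and 0.019 in the additive fit). Pgk1, phosphoglycerate kinase, had 36827 and 33265, then 11170 and 1349. Ldha, lactate dehydrogenase, had 24894 and 23668, then 8275 and 2384, and the lactate exporter gene Slc16a3 4466 and 4056, then 1354 and 273. The day 5 levels of these 4 genes were all below day 1.

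The same list held falls that were milder in replicate 1, though not all were milder in the low-mRNA library. Slc2a1, the glucose transporter, had 3257 and 2978, then 1409 and 182. Pdk1, which holds pyruvate out of the mitochondrion, had 3085 and 3014, then 1428 and 175. Gapdh had 37756 and 34092, then 17046 and 10501, and Hif1a, the oxygen-regulated factor, had 2358 and 2311, then 1913 and 161. Bhlhe40, a hypoxia-induced repressor, had 673 and 781, then 668 (adjusted p = 0.43) and 350, and passed in neither library on the protein-coding scale.

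In replicate 1, 12 NRF2 and oxidative stress genes fell and 2 rose. Of 19 tested NRF2 and oxidative stress genes (of 20 listed) the median there was -0.72 (7 fell and 0 rose in the additive fit), and 15 fell and 4 rose in the low-mRNA library (median -0.83; 17 and 1 as deposited). Gclm, of glutathione synthesis, had 4096 and 4086, then 1830 and 606, with a difference of -1.16 ± 0.05 in replicate 1 (adjusted p = 0.0014, and 0.017 in the additive fit). Hmox1, heme oxygenase, had 3275 and 3057, then 1287 and 356, and Cat, catalase, 5043 and 4382, then 2180 and 483. Gpx1, a glutathione peroxidase, rose in replicate 1, from 2175 and 2654 to 5334, with 1838 in the low-mRNA library.

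Of 26 tested genes for amino acid supply and the integrated stress response (of 27 listed) 14 fell and 6 rose in replicate 1 (median -0.40; 3 fell and 1 rose in the additive fit), and 18 fell and 4 rose in the low-mRNA library (median -1.29; 23 and 1 as deposited). The serine synthesis genes fell: Psat1 had 3566 and 3302, then 1181 and 199, and Phgdh 1877 and 1672, then 888 and 97.5. Ddit3, the stress factor CHOP, rose instead, from 154 and 132 to 697 and 277, by 2.28 ± 0.11 in replicate 1 (adjusted p = 0.0016, and 0.014 in the additive fit) and by 2.02 in the low-mRNA library (0.95 as deposited).

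Most sterol synthesis genes fell in both libraries, and 6 of 12 cholesterol efflux genes rose in replicate 1. Of 26 tested sterol and fatty acid genes (of 27 listed) 20 fell and 0 rose in replicate 1 (median -0.54; 8 fell in the additive fit), and 24 fell and 1, Fdft1, rose in the low-mRNA library (median -1.02; 26 and 0 as deposited). Scd2, a desaturase, had 16158 and 15599, then 7269 and 2977, and Fads2 had 1751 and 1565, then 773 and 162. Of 12 tested LXR and efflux genes (of 15 listed) 6 rose and 2 fell in replicate 1 (median 0.53; 1 rose in the additive fit), and 8 rose and 3 fell in the low-mRNA library (median 0.57; 3 and 7 as deposited, median -0.49). Abca1, the cholesterol exporter, had 49.2 and 65.5, then 380 and 48. Abcg1 had 683 and 731, then 1788 and 740, and passed the additive fit (adjusted p = 0.008). Nr1h3, which encodes LXR alpha, rose in both on either scale, from 56.8 and 50.3 to 117 and 122.

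Most genes of the unfolded protein response and 16 of 28 p53 targets and BCL2 family genes rose in replicate 1. Of 18 unfolded protein response genes 15 rose and 0 fell (median 0.63; 5 in the additive fit), against 3 and 12 in the low-mRNA library (median -0.61; 0 and 17 as deposited). Hspa5, the chaperone BiP, had 13839 and 13549 on day 1, then 28685 and 4203, and Herpud1 had 451 and 425, then 1295 and 140. Of 28 tested p53 targets and BCL2 family genes (of 29 listed) 16 rose and 1, Mdm2, fell in replicate 1 (median 0.52; 5 rose in the additive fit), and 12 rose and 12 fell in the low-mRNA library (median 0.12; 1 and 21 as deposited). Bcl2, a survival protein, had 382 and 374, then 952 and 352, and Phlda3, a p53 target, had 76.5 and 94.3, then 409 and 175. Of 16 tested iron and heme genes (of 18 listed) 2 rose and 3 fell in replicate 1 (median -0.08; 1 fell in the additive fit), and 4 rose and 10 fell in the low-mRNA library (median -0.61; 0 and 14 as deposited).

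Cell cycle genes fell in both libraries, modestly in replicate 1 and far more in the low-mRNA library. Of 34 DNA replication and G1/S genes 26 fell and 1 rose in replicate 1 (median -0.50; 2 fell and 1 rose in the additive fit), and 32 fell and 2 rose in the low-mRNA library (median -1.79; 34 and 0 as deposited). Of 35 mitosis and G2/M genes 30 fell and 0 rose in replicate 1 (median -0.56; 3 fell in the additive fit), and 34 fell and 0 rose in the low-mRNA library (median -2.47). Bub1, a kinase of the spindle checkpoint, had 2436 and 2639 on day 1, 1165 in replicate 1 and 41 in the low-mRNA library. Ccnb1, cyclin B1, had 1661 and 1718, then 820 and 39.6. Mcm6, of the replicative helicase, had 4430 and 4569, then 2544 and 102.

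The proliferation marker Mki67 had 8038 and 9784, then 6017 and 1002, and its fall in replicate 1 (-0.56 ± 0.12, adjusted p = 0.03) lost the threshold with quantile normalization and, at 0.36, in the additive fit. The 1 rise among G1/S genes in replicate 1 was Ccnd1, cyclin D1, from 7503 and 7432 to 14826 (0.99 ± 0.06, adjusted p = 0.0017, and 0.023 in the additive fit), with 4178 in the low-mRNA library.

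**Figure D4:**
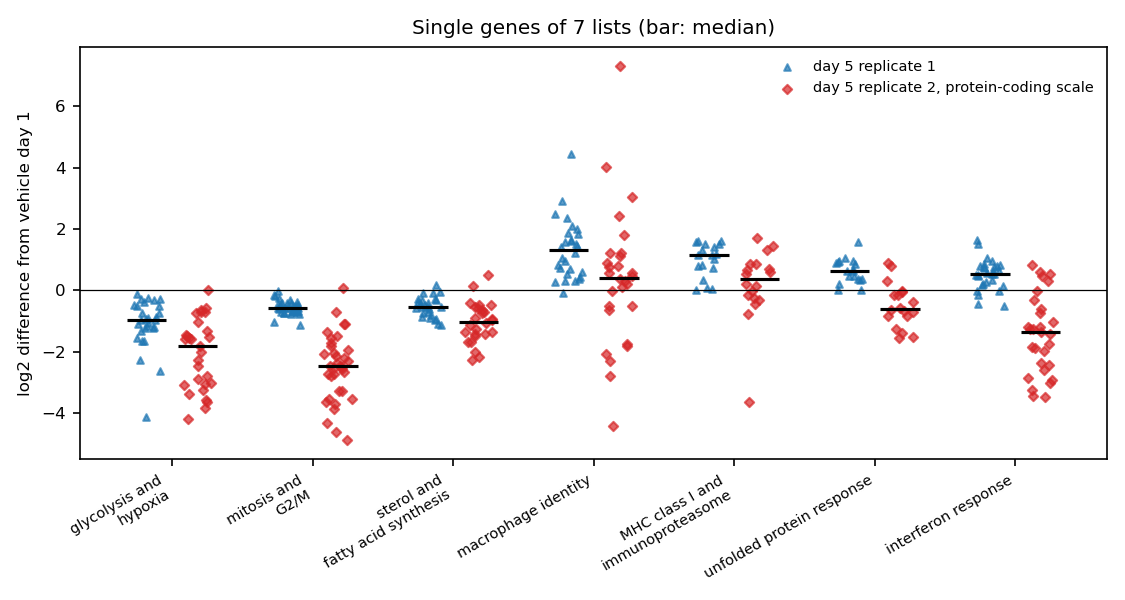
Log2 difference from vehicle day 1 of each tested gene in 7 lists, for day 5 replicate 1 (triangles) and the low-mRNA library on the protein-coding scale (diamonds), with bars at the medians. The glycolysis, mitosis and sterol lists lie mostly below 0 in both libraries, while the unfolded protein response and interferon medians lie above 0 in replicate 1 (0.63 and 0.54) and below in the low-mRNA library (-0.61 and -1.35).

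No gene of the ribosomal protein, oxidative phosphorylation and citrate cycle lists rose in replicate 1, and 0 of their falls passed the additive fit. Of 37 cytosolic ribosomal protein genes 12 fell and 0 rose (median -0.16), and of 37 nuclear-encoded oxidative phosphorylation genes 18 fell and 0 rose (median -0.26). In the low-mRNA library 34 ribosomal protein genes rose and 1 fell (median 1.08; 16 and 15 as deposited), and 20 oxidative phosphorylation genes rose and 10 fell (median 0.33; 3 and 26 as deposited, median -0.73). Of 21 citrate cycle and mitochondrial biogenesis genes 16 fell and 0 rose in replicate 1 (median -0.35), and 16 fell and 3 rose in the low-mRNA library (median -0.69; 20 and 1 as deposited).

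The 15 mitochondrially encoded genes all rose in the low-mRNA library (median 3.44; 2.37 as deposited), where quantile normalization gave 11 rises and 1 fall (median 1.22). In replicate 1, 5 of them fell and 0 rose (median -0.42; 0 in the additive fit). mt-Co1, a subunit of cytochrome oxidase, had 137236 and 143518, then 91848 and 666435. Of 14 tested replication-dependent histone genes (of 20 listed) 10 rose and 0 fell in the low-mRNA library (median 2.06; 7 and 2 as deposited), and 0 rose and 1 fell in replicate 1 (median -0.13; 0 in the additive fit). Of 10 tested nuclear long noncoding RNAs (of 15 listed) 8 rose and 1 fell in the low-mRNA library (median 2.22; 6 and 2 as deposited), and 3 rose and 1 fell in replicate 1 (median -0.03; 2 rose in the additive fit). Malat1 had 27781 and 28650, then 36915 (adjusted p = 0.20) and 1250881. Neat1, the scaffold RNA of paraspeckles, rose in both on either scale, from 6225 and 6137 to 13379 and 21746. Histone and nuclear noncoding RNAs thus stood high in the library with a low share of protein-coding reads, and the part of that composition in the other differences of the low-mRNA library was not tested.

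Some of the largest changes lay outside the lists. In replicate 1 the largest rises beside those above were Cmah, of sialic acid synthesis (19.7 and 14.4, then 414 and 63.6), March1, a ubiquitin ligase of MHC class II (22.7 and 29.6, then 547 and 31.1), and Ms4a7 (17.4 and 18, then 262 and 63.6). Entpd1, the ATP-degrading ectoenzyme CD39, had 4.54 and 7.18, then 78.2 and 18.4, and Sorbs3, an adaptor of vinculin, had 9.85 and 10.8, then 111 and 28.3. Of these 5 genes March1 did not pass in the low-mRNA library as deposited, and the other 4 rose there on either scale. The immunoglobulin joining segment Ighj1 had 8.33 and 1.8, then 52.4 and 0, beside the Ighm level of 841. Its call was lost with a pseudocount of 0.5 and with quantile normalization.

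In the low-mRNA library the largest rises, beside those above, included genes near 0 in the other 3 libraries. The kinase gene Matk had 4.54 and 6.28 on day 1, 6.44 in replicate 1 and 420 in the low-mRNA library. Bcas3os1 (131), Mir763 (105), Hist4h4 (91.8) and Hmgb1-rs16 (84.8) had at most 0.757 in the other 3 libraries. The low-mRNA libraries outside this comparison are given in the order vehicle day 3, supernatant day 3 and supernatant day 5. Bcas3os1 had 254, 165 and 105 there, and Mir763 101, 167 and 93.6. Hmgb1-rs16 had 103, 117 and 40.3, and Hist4h4 92.6, 7.87 and 67.5. Matk had 157, 211 and 233, and also 102 in vehicle day 3 replicate 1. Such levels were therefore not particular to vehicle day 5. The largest falls included Wee1, the kinase that restrains entry into mitosis (266 and 256, then 252 and 1.41), Plppr3 (261 and 259, then 237 and 1.41), Klhl23 (97.7 and 101, then 66.3 and 0) and Mir8114 (230 and 229, then 199 and 1.41). None of these 4 passed in replicate 1. In the low-mRNA libraries outside this comparison, in the order above, Wee1 had 7.35, 6.3 and 13, and Plppr3 8.82, 9.45 and 3.56. Klhl23 had 1.47, 7.87 and 8.3, and Mir8114 1.47, 4.72 and 9.48. These low levels were therefore not particular to vehicle day 5 either. Ak4, a mitochondrial adenylate kinase (2540 and 2317, then 644 and 21.2), and Stc2, a secreted glycoprotein (504 and 427, then 126 and 2.83), fell in both.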

How the data were processed

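RNA sequencing values of 4 vehicle libraries, from a table of 12, were used. The submitters' processing notes name TopHat2, SAMtools, DESeq2 and the build mm9. Their versions, the annotation and how reads were counted were not given in the sources used here. Per library, the authors deposited 1 column of log2 values, each equal, as the values show, to a normalized count with 8 added before the logarithm. After removal of the offset, 100% of values were whole multiples of 1 read within 0.1 read, and each library summed to 12709483. Of 24757 rows, 993 repeats with equal values were dropped, which left 23764 identifiers, and 23315 took a symbol from the reference table. A second identifier column differed from the Ensembl column in 24708 rows and was not used.

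Genes with a mean of at least 10 normalized counts in at least 1 of 6 groups were kept. Values were taken as log2(normalized count + 1) and fitted with limma 3.58.1 (R 4.3.3, trended prior) over 12 libraries, with Benjamini-Hochberg adjustment over all tested genes at 0.05. Fold changes on this scale understate changes of low genes. The 12-library fit had 6 residual degrees of freedom, the fit with a mean for each arm, day and library kind 2, and the additive fit 4. Leaving out 1 day 1 library, of either the vehicle or the supernatant arm, left the fit by library kind 1 residual degree of freedom. Libraries under 60% of reads on nuclear protein-coding genes count as low-mRNA. A value of 0 allows up to 3 reads, a limit that covers counting error only. The fits were tested on simulated data, drawn from vehicle day 1 proportions with the same spread in every library, apart from planted changes. Such data cannot check the spread assumed at day 5 or the low-mRNA composition.

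The comparison, its gene lists and its tests were chosen with earlier results of these data known. Named genes, with a level of at least 50 on the higher side, are the 10 largest shared rises and falls, the 8 largest called in each library, up to 4 of each list by p over 12 libraries, and fixed osteoclast and macrophage genes, to which the minimum does not apply. Other list members named are examples chosen after their values were seen. A few named genes are not reported here. Alternatives were a replicate block, leaving out libraries, other samples in the fit, no filter, pseudocounts of 0.5 and 5, quantile normalization, protein-coding scaling and limma-voom on recovered reads. limma-voom called 5298 genes for day 5 replicate 1; other count models were not run on these log-scale values. Tables were made with Python 3.11.15 and pandas 2.3.3 (numpy 2.4.6), and figures with matplotlib 3.10.9.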

Additional observations from a re-analysis of the deposited data

Results flagged for a closer look

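In 2 named genes both vehicle libraries of day 5 lay below both of day 1 while both libraries given bacterial supernatant lay above their own day 1, on the protein-coding scale. For Ier3, an early response gene, the mean difference was -1.97 log2 units in vehicle and 0.342 with supernatant. For Hk2, a hexokinase, it was -0.705 in vehicle and 0.127 with supernatant. The difference between the arms was not tested.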

How the results depend on the processing

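The count of 0 genes over 12 libraries held under each alternative run. For day 5 replicate 1, the 4186 calls became 431 in the additive fit, 1356 in the additive fit on the protein-coding scale (added after seeing the data), 2390 with no filter and 2325 with the 4 vehicle libraries alone. Leaving out 1 library gave 0 to 4245 calls: 0 without either vehicle day 1 replicate, which leaves 1 residual degree of freedom, and 2104 and 2121 without treatment day 1 replicate 1 or 2. The calls of the low-mRNA library, 2248 higher and 10197 lower as deposited, were 5139 and 6656 on the protein-coding scale and 5529 and 6224 after quantile normalization; against replicate 1 they were 1846 and 10234, 4702 and 6454, and 5139 and 6003. The 382 genes beyond day 1 in both libraries as deposited became 632 with no filter. Lpl in the low-mRNA library turned from 0.55 on the protein-coding scale to -1.71 after quantile normalization. Day 1 libraries of like number did not deviate together with those of day 5 (correlation of deviations 0.0541 for vehicle), while groups of days 3 and 5, where replicate 2 is the low-mRNA library throughout, correlated at 0.782 to 0.899, so over all groups the numbers are not shown to pair samples; a replicate block gave 0 calls over 12 libraries, 4484 for replicate 1, 12467 for replicate 2 and 11732 between them, and changed none of these 4 counts by over 1.5 times. The cause of these shifts was not tested. Each day 5 library is a single sample against day 1, and the low-mRNA library holds 3683617 reads on nuclear protein-coding genes against at least 12087622 in the other 3, so low genes are least certain there.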
